A study of Mus musculus with 82 samples.

Results

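The genes described here are 9 nuclear genes of mitochondrial biogenesis and protein import: Ppargc1b, Pprc1, Esrra, Nrf1, Gabpa, Tfam, Tfb2m, Grpel1 and Grpel2. All probe sets annotated to one of these symbols and to no other gene were taken, which gave 16 of the 45037 probe sets tested, for 9 of the 18194 genes measured. Esrra, Gabpa, Tfam and Grpel2 have 2 probe sets each, Nrf1 has 4, and the other 4 genes have 1. Where 1 value per gene was needed, the gene's probe set with the greatest mean level was used. No filter on level was applied to the probe sets, but the 9 genes were chosen with earlier results of these data known. All 16 probe sets had a mean over all arrays of a cell type above the median of all probe sets, in both cell types. Single groups can lie at or below that median.

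The study measured RNA on Affymetrix mouse arrays in C57BL/6 mouse embryonic fibroblasts (MEFs) and in primary hepatocytes isolated by collagenase perfusion. The cells were AMPK alpha1-/- alpha2-/- (dKO), with both genes for the catalytic alpha subunit of AMP-activated protein kinase (AMPK) deleted, or WT. Each was exposed for 4 h to 991, to AICAR or to vehicle (DMSO). The doses were 10 µM 991 and 2 mM AICAR in MEFs, and 3 µM 991 and 300 µM AICAR in hepatocytes. The arrays fall into 12 groups. In MEFs there were 4 arrays each of dKO cells with 991, AICAR and vehicle, 3 of WT cells with 991, and 4 each of WT cells with AICAR and vehicle. In hepatocytes there were 10 arrays of each group apart from dKO with vehicle, which had 9. The MEF titles call the vehicle arrays untreated, while their treatment label says vehicle. The labels call all MEF arrays technical replicates and do not say how many lines of each genotype were used, so a p-value in MEFs measures technical spread only. Hepatocyte arrays came from 2 preparations of each genotype, whose technical replicates were averaged first, which leaves n = 2 per hepatocyte group. Hepatocytes were plated with insulin, T3 and dexamethasone and kept in dexamethasone afterwards, in all groups. Because the doses are not matched, 991 and AICAR, and MEFs and hepatocytes, are given side by side without a test between them.

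AMPK is a kinase that senses a fall in cellular energy. The code-named compound 991 activates it directly, while AICAR is phosphorylated in cells to ZMP, a mimic of AMP that also acts on other AMP-sensitive enzymes. Mitochondrial biogenesis is controlled by coactivators of the PGC-1 family (Ppargc1b and Pprc1 here, with Ppargc1a as the third member), which dock on transcription factors such as ERR alpha (Esrra), nuclear respiratory factor 1 (Nrf1) and the ETS factor GABP alpha (Gabpa). These factors act on nuclear genes of mitochondrial proteins, among them Tfam, which packages mitochondrial DNA and bends its promoters, and Tfb2m, which melts these promoters for the mitochondrial RNA polymerase. Grpel1 and Grpel2 are paralogous nucleotide exchange factors of the matrix chaperone Hspa9, the motor that pulls imported proteins through the inner membrane.

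RefSeq promoter windows (GRCm38.p6) run from 250 bases before to 50 after a start site, which need not be the outer end of the gene. They were matched by gene ID for 7 of the 9 genes, in 8 windows, with none for Ppargc1b and Grpel2. They were searched on both strands for 4 motifs, which do not overlap each other in these windows: CCGGAAG of GABPA and other ETS factors, TGCGCATGC of NRF1, TCAAGGTCA of ERR factors, and the E-box CACGTG of MiT/TFE and other bHLH factors. The 4 windows with a match are shown because the matched letters are those of Gabpa and Nrf1, themselves members, with the match in capitals and the sequence read 5′ to 3′ on the gene's strand. In Gabpa, Grpel1 and Esrra the match is on the opposite strand, so that the capitals spell its reverse complement. The ETS letters were in the windows of Gabpa, Tfam and Grpel1, and the NRF1 letters in that of Esrra.
Gabpa, chr16:84834874-84835173, plus strand: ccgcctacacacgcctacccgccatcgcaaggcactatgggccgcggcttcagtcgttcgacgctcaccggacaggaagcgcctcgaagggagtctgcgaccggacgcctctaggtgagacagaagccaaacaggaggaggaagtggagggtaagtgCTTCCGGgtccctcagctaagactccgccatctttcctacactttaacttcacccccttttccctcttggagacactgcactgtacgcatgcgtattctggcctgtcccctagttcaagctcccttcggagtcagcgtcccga
Tfam, chr10:71237995-71238294, minus strand: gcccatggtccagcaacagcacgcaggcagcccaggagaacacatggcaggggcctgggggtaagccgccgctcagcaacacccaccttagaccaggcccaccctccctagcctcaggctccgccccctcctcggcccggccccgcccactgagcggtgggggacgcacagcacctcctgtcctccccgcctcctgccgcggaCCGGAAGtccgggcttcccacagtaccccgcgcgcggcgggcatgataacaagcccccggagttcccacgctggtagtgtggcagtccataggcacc
Grpel1, chr5:36464935-36465234, plus strand: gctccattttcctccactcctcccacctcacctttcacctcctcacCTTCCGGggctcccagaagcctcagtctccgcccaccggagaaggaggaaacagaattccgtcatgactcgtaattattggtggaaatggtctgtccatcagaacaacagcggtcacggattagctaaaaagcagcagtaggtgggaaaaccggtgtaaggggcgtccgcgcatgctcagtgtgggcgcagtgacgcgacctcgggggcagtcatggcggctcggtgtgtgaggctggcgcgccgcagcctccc
Esrra, chr19:6921759-6922058, minus strand: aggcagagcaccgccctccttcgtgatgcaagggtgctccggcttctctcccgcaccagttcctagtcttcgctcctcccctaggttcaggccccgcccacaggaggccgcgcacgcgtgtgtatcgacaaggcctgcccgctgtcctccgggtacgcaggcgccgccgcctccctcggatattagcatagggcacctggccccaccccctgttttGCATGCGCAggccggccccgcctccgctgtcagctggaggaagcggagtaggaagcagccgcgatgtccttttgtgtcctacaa
Relative to the start site of the window, the match began at -93 in Gabpa, -47 in Tfam, -204 in Grpel1 and -34 in Esrra. The RefSeq gene table has the genes begin further upstream in Gabpa (84834891), Tfam (71238328) and Esrra (6922048). The matches of these genes thus lie inside the gene's bounds, while that of Grpel1 lies before them. Of all 32851 RefSeq mouse windows of this length, 8.858% hold the ETS letters and 1.519% the NRF1 letters. No member window held the ERR letters, found in 0.423% of all windows, or the E-box, found in 7.15%. A match is a description of these letters and says nothing on binding.

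On the deposited log2 intensity scale the median of an array was 6.158 to 6.246 for MEFs and 5.877 to 6.078 for hepatocytes, and no pair of arrays was identical. The 8 hepatocyte markers had means of 11.70 to 14.77 in hepatocytes and 4.50 to 7.02 in MEFs. Of the 8 fibroblast markers, Col1a1, Col1a2 and Pdgfrb were at 9.44 to 11.96 in MEFs, while Thy1 and Pdgfra, both often used to define fibroblasts, were at 5.51 and 5.34, below the median of all probe sets there (6.21). The 7 Kupffer cell and macrophage markers had means of 7.45 to 10.58 in hepatocytes, against 4.75 to 6.89 in MEFs. Of the targeted genes, Prkaa1 in MEFs was at 8.26 ± 0.08 in dKO and 8.35 ± 0.13 in WT with vehicle (SD, n = 4 each), which did not pass the test (limma adjusted p = 0.54). In hepatocytes Prkaa1 was at 4.46 and 4.59 in the dKO preparations and at 5.54 and 5.72 in the WT preparations with vehicle. That difference was -1.11 ± 0.09 and was not called either (adjusted p = 0.173), and all these levels lie below the median of all probe sets there (5.94). Prkaa2 was lower in dKO MEFs than in WT MEFs (-0.32 ± 0.08, adjusted p = 0.00134), and in hepatocytes it was at 9.56 and 9.63 in dKO and at 9.71 and 9.68 in WT. Where the alleles are cut relative to these probe sets is not known here, so they do not check the genotype.

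Differences below are compound minus vehicle or dKO minus WT, on the log2 scale, with the standard error (SE) of a limma fit over all 45037 probe sets, and a probe set is called at a Benjamini-Hochberg adjusted p under 0.05. An interaction is the effect in WT minus the effect in dKO. In bulk RNA of this kind, fewer cells of a type and less RNA per cell cannot be told apart.

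With 991, no member was called in dKO MEFs, where 1.78% of all probe sets were, and limma gave 3 of the 16 an unadjusted p under 0.05. In WT MEFs 4 of the 16 were higher and none lower, where 13% of all probe sets were called, 4159 higher and 1712 lower. In dKO hepatocytes no member was called with 991 either, where 0.00666% of all probe sets were, and 1 member had an unadjusted p under 0.05. In WT hepatocytes 3 of the 16 were higher with 991, the single Ppargc1b probe set and both of Grpel2, where 4.09% of all probe sets were called. The interaction was called for 2 members in MEFs (2.9% of all probe sets) and for 1 in hepatocytes (0.189%).

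With AICAR, more members were called in MEFs than with 991, and in both directions. In dKO MEFs 9 probe sets were higher and 5 lower, where 37.8% of all probe sets were called. In WT MEFs 8 were higher and 5 lower, where 31.7% were called. In dKO hepatocytes 2 were higher and 2 lower, where 20.8% were called, and in WT hepatocytes none was higher and 4 were lower, where 18.2% were called. The 4 of 16 called in each hepatocyte genotype are near these shares of all probe sets. The AICAR interaction was called for 1 member in MEFs (9.37% of all probe sets) and for 1 in hepatocytes (2.52%). In the dKO cells with vehicle, 8 members were higher and 3 lower than in WT MEFs, where 40.9% of all probe sets were called. Between dKO and WT hepatocytes with vehicle no member was called, and 0% of all probe sets were. There limma gave 1 of the 16 members, and 2454 of all 45037 probe sets, an unadjusted p under 0.05.

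**Figure D1:**
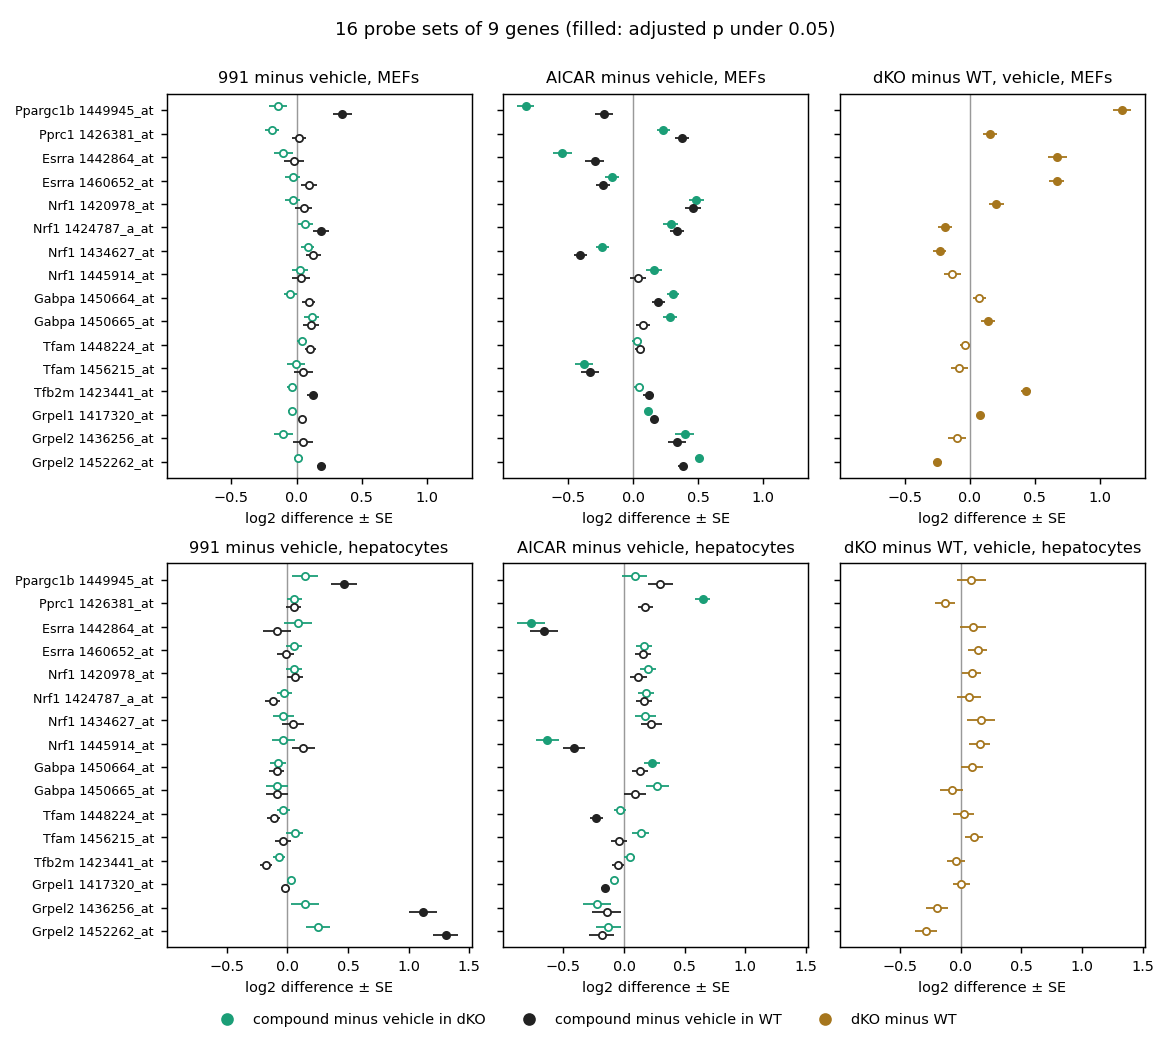
Log2 difference ± SE of each of the 16 probe sets, by gene and probe set (rows), for 991 minus vehicle, AICAR minus vehicle and dKO minus WT with vehicle, in MEFs (top row of panels) and hepatocytes (bottom row). Green points are dKO cells, black points WT cells, brown points the genotype difference, and filled points were called. The Grpel2 probe sets stand at 1.12 and 1.30 with 991 in WT hepatocytes, apart from every other point of that panel.

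Grpel2 rose with 991 in WT hepatocytes by more than any other member changed in any comparison. On probe set 1452262_at it was at 10.70 and 10.85 in the 2 WT hepatocyte preparations with 991, against 9.52 and 9.42 with vehicle. The arrays behind these means ran from 10.65 to 10.75 and 10.82 to 10.88 with 991, and from 9.46 to 9.62 and 9.34 to 9.49 with vehicle, so no array of one treatment reached those of the other. The difference was 1.30 ± 0.10, or 2.47-fold (limma adjusted p = 0.000108), and it ranked 14 among the rises of all 45037 probe sets. In dKO hepatocytes Grpel2 was at 9.32 and 9.55 with 991, against 9.12 and 9.25 with vehicle. The difference of 0.25 ± 0.10 was not called (limma adjusted p = 0.9998), in a comparison that called 3 of all 45037 probe sets. Both dKO preparations were higher with 991, by 0.20 and 0.31, while the WT preparations were higher by 1.18 and 1.42.

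The 991 effect on Grpel2 in hepatocytes was larger in WT than in dKO by 1.05 ± 0.14 (limma adjusted p = 0.0178). This interaction was called without WT preparation 1. It was not called with no replicate block for the preparation (adjusted p = 0.188), without WT preparation 2 (0.93, adjusted p = 0.165), without dKO preparation 1 (1.00, adjusted p = 0.0736) or without dKO preparation 2 (1.10, adjusted p = 0.0519), and in a fit without a preparation the lone preparation left in its genotype is taken to vary like the others. The difference in WT hepatocytes itself was called in all 12 other fits, with 1.18 to 1.42 and a highest adjusted p of 0.0126. The second probe set, 1436256_at, was at 8.55 and 8.57 in WT with 991, against 7.48 and 7.41 with vehicle (1.12 ± 0.12, adjusted p = 0.000615), and ranked 25. It was at 7.21 and 7.57 in dKO with 991, against 7.16 and 7.32 with vehicle (0.14 ± 0.12, not called). Both probe sets of Grpel2 thus rose in WT hepatocytes, and the interaction of the second was 0.98 ± 0.17 (adjusted p = 0.0535, not called). Without WT preparation 2 its rise was 1.07 (adjusted p = 0.0611). Across the 7 Kupffer cell and macrophage markers, the mean level was 8.72 and 8.96 in WT preparations 1 and 2 with 991, against 8.60 and 9.04 with vehicle. The part of these cells in the Grpel2 result was not tested.

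In MEFs the same gene changed less with 991 and more with AICAR. Probe set 1452262_at of Grpel2 was at 10.35, 10.40 and 10.38 in WT MEFs with 991, against 10.17, 10.24, 10.20 and 10.13 with vehicle, a difference of 0.19 ± 0.04 (limma adjusted p = 0.000822). The groups did not overlap. In dKO MEFs it was at 9.90, 9.98, 9.92 and 9.99 with 991, against 9.95, 9.95, 9.88 and 9.96 with vehicle (0.01 ± 0.03, not called). The interaction was 0.18 ± 0.05 (adjusted p = 0.046). That call was lost in 17 of the 23 fits that left out 1 array, with 0.16 to 0.19 and adjusted p of 0.0509 to 0.12, and it held only without dKO 991 replicate 4, dKO AICAR replicate 3 or 4, dKO vehicle replicate 3, WT AICAR replicate 2 or WT vehicle replicate 2. It was also lost with the technical replicate number as a replicate block (0.17, adjusted p = 0.0545), after quantile normalization (0.13, adjusted p = 0.184) and without the variance trend (adjusted p = 0.0987). The second probe set gave 0.15 ± 0.10 for the interaction and 0.05 ± 0.08 in WT, neither called.

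With AICAR, Grpel2 rose in MEFs of both genotypes. On 1452262_at it was at 10.43, 10.47, 10.37 and 10.49 in dKO MEFs with AICAR, higher than with vehicle by 0.51 ± 0.03 (adjusted p = 1.52e-13). In WT MEFs it was at 10.58, 10.57, 10.55 and 10.57 with AICAR, higher by 0.38 ± 0.03 (adjusted p = 1.55e-10). Both were clear of their vehicle arrays, and the interaction was not called (-0.12 ± 0.05, adjusted p = 0.111). The second probe set rose by 0.39 ± 0.07 in dKO and 0.34 ± 0.07 in WT. In hepatocytes neither probe set was called with AICAR, and Grpel2 was at 9.13 and 8.97 in dKO and at 9.42 and 9.15 in WT (differences of -0.13 ± 0.10 and -0.19 ± 0.10). In MEFs with vehicle, Grpel2 was lower in dKO than in WT by 0.25 (-0.25 ± 0.03, adjusted p = 2.51e-07), with no overlap. In hepatocytes it was lower in dKO as well, at 9.12 and 9.25 against 9.52 and 9.42 in WT, but the difference (-0.29 ± 0.09) was not called (adjusted p = 0.889).

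**Figure D2:**
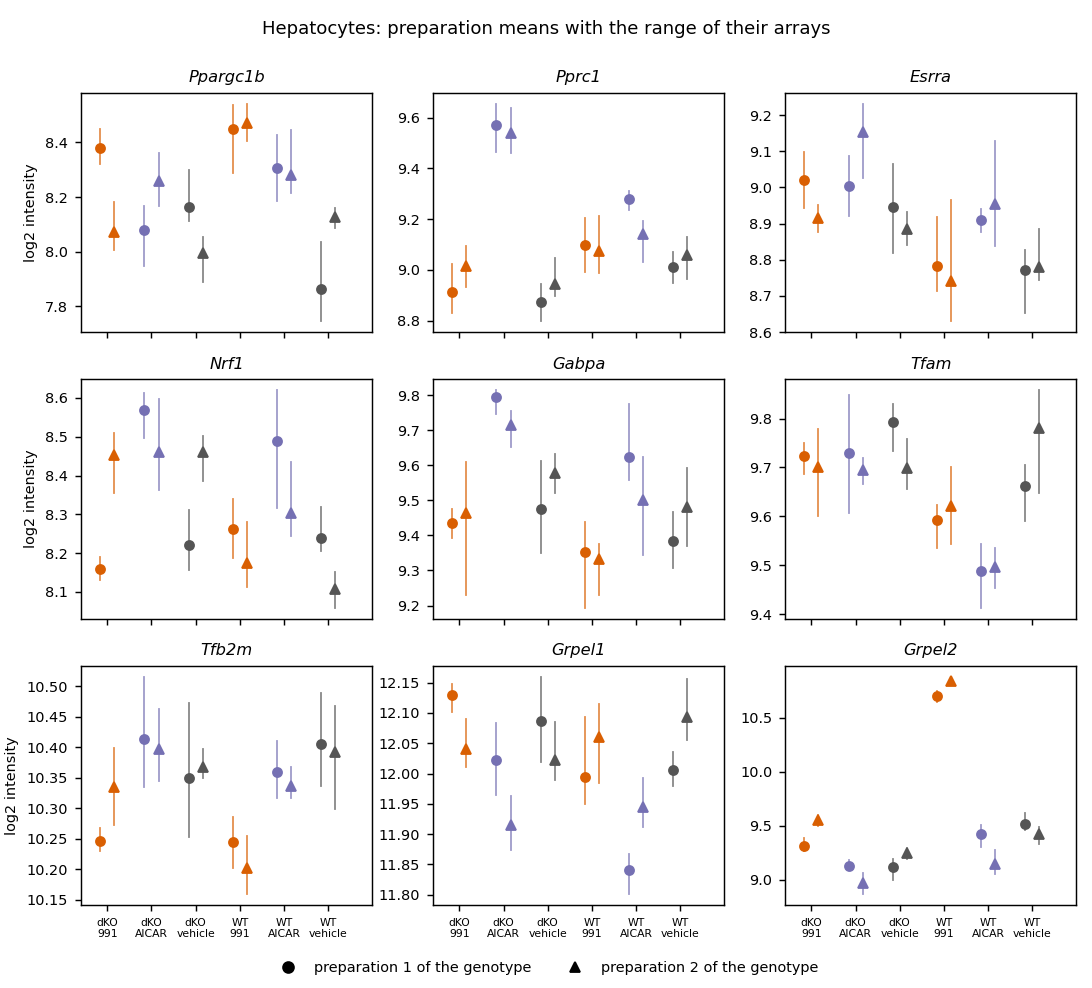
Log2 intensity (vertical axes, 1 scale per gene) in hepatocytes for the probe set that stands for each gene, by genotype and treatment. Circles and triangles are the means of preparations 1 and 2 of the genotype, and lines span the lowest to the highest array of the preparation. Grpel2 in WT cells with 991 lies at 10.70 and 10.85, above the other 10 preparation means, which lie between 8.97 and 9.55.

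Grpel1, the paralog, was not called with 991 in either cell type. In WT hepatocytes it was at 11.99 and 12.06 with 991, against 12.01 and 12.09 with vehicle (-0.02 ± 0.03, adjusted p = 0.744, 95% interval -0.10 to 0.05). In dKO hepatocytes it was at 12.13 and 12.04 with 991, against 12.09 and 12.02 with vehicle (0.03 ± 0.03, not called). The interval of the WT difference lies far below the 1.30 of Grpel2, although the difference between the paralogs was not tested. With AICAR, Grpel1 rose slightly in MEFs, by 0.11 ± 0.03 in dKO (adjusted p = 0.00047) and by 0.16 ± 0.03 in WT (adjusted p = 6.86e-06), with no overlap of the groups in either. After quantile normalization the difference in dKO was 0.06 (adjusted p = 0.0541). Grpel1 was also higher in dKO than in WT MEFs with vehicle, by 0.08 ± 0.03 (adjusted p = 0.00912). In WT hepatocytes it fell with AICAR, to 11.84 and 11.94, a difference of -0.16 ± 0.03 (adjusted p = 0.00859), and that call was lost without WT preparation 1 (-0.15, adjusted p = 0.0823) or 2 (-0.17, adjusted p = 0.057), with no replicate block (adjusted p = 0.154) and without the variance trend (adjusted p = 0.0668). In dKO hepatocytes it was at 12.02 and 11.92 with AICAR (-0.09 ± 0.03, not called). Over the 6 groups of a cell type its means spanned 0.19 in MEFs and 0.19 in hepatocytes, against 0.63 and 1.72 for Grpel2.

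Ppargc1b, the PGC-1 beta coactivator, had the largest genotype difference of the members in MEFs. It was at 7.26, 7.47, 7.27 and 7.52 in dKO MEFs with vehicle, against 6.14, 6.23, 6.28 and 6.18 in WT MEFs, a difference of 1.17 ± 0.07 (limma adjusted p = 1.66e-15). The lowest dKO array, at 7.26, was far above the highest WT array, at 6.28. The WT arrays lay around the median of all probe sets there (6.21), and whether they stand above background is not known here. In hepatocytes with vehicle it was at 8.17 and 7.996 in dKO and at 7.86 and 8.13 in WT, which overlap (0.09 ± 0.12, not called). The difference between the cell types in this genotype effect was not tested. Ppargc1a, the other family member with a role in fasting, was at 4.55, 4.26, 4.31 and 4.24 in dKO and at 5.36, 5.58, 5.29 and 5.25 in WT with vehicle in MEFs, all below the median of all probe sets there (6.21). Its difference was called (-1.03 ± 0.11, adjusted p = 1.11e-09), but the table gives no detection calls, and whether these levels stand above background is not known here.

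With 991, Ppargc1b rose in WT cells of both types. In WT MEFs it was at 6.59, 6.62 and 6.47 with 991, above all 4 vehicle arrays, by 0.35 ± 0.07 (adjusted p = 0.0017). In dKO MEFs it was at 7.29, 7.21, 7.25 and 7.21 with 991, which overlaps the vehicle arrays (-0.14 ± 0.07, not called). The interaction was 0.49 ± 0.10 (adjusted p = 0.00403), and it was called in all 28 other fits. In WT hepatocytes Ppargc1b was at 8.45 and 8.47 with 991, against 7.86 and 8.13 with vehicle (0.47 ± 0.10, adjusted p = 0.0329). That call was lost without WT preparation 1 (0.35, adjusted p = 0.253), without WT preparation 2 (0.59, adjusted p = 0.204) and with no replicate block (adjusted p = 0.131). In dKO hepatocytes it was at 8.38 and 8.07 with 991, against 8.17 and 7.996 with vehicle (0.15 ± 0.10, not called). The interaction there was 0.32 ± 0.15 with a 95% interval of -0.01 to 0.65, and was not called (adjusted p = 0.718). Ppargc1a in WT hepatocytes was at 5.98 and 6.07 with 991, near the median of all probe sets there (5.94), against 5.47 and 5.60 with vehicle, below it. The difference was called (0.49 ± 0.12, adjusted p = 0.0405), with the same doubt about background, and neither dKO (-0.23 ± 0.12) nor the interaction (0.72 ± 0.16, adjusted p = 0.185) was.

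With AICAR, Ppargc1b fell in MEFs, and more so in dKO. It was at 6.55, 6.57, 6.51 and 6.60 in dKO MEFs with AICAR, a difference of -0.82 ± 0.07 from vehicle (adjusted p = 1.27e-11). In WT MEFs it was at 6.12, 5.93, 5.98 and 5.93 with AICAR (-0.22 ± 0.07, adjusted p = 0.0101). In both genotypes the AICAR arrays lay below all vehicle arrays, and the interaction of 0.60 ± 0.09 was called (adjusted p = 5.31e-05). Even after this fall, the lowest dKO array with AICAR (6.51) lay above the highest WT array with vehicle (6.28). All WT arrays with AICAR lay below the median of all probe sets there (6.21), and the WT vehicle arrays lay around it. The WT fall and the interaction therefore carry the doubt about background given above for Ppargc1a. The order of the 6 MEF groups for Ppargc1b was dKO vehicle, dKO 991, WT 991, dKO AICAR, WT vehicle and WT AICAR, in which dKO vehicle overlapped dKO 991, and WT 991 overlapped dKO AICAR, while the other neighbours did not overlap. In hepatocytes no AICAR difference was called (0.09 ± 0.10 in dKO, 0.30 ± 0.10 in WT), while Ppargc1a, whose vehicle levels lie below the median of all probe sets there, was called in both genotypes (0.38 ± 0.12 in dKO, adjusted p = 0.0382, and 0.57 ± 0.12 in WT, adjusted p = 0.00587).

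**Figure D3:**
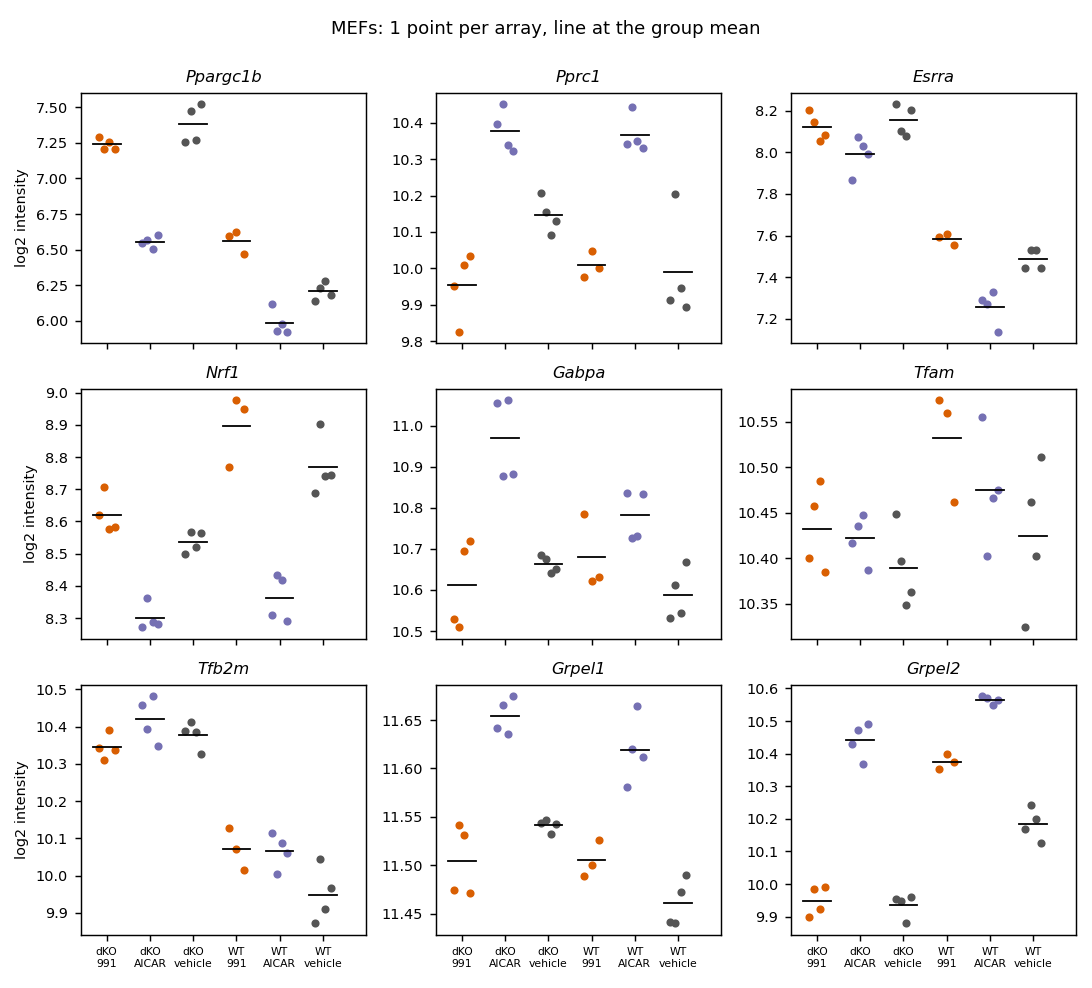
Log2 intensity (vertical axes, 1 scale per gene) in MEFs for the probe set that stands for each gene, by genotype and treatment, with 1 point per array and a line at the group mean. Ppargc1b, Esrra and Tfb2m are higher in dKO than in WT with vehicle (differences of 1.17, 0.67 and 0.43), and Grpel2 is lower (-0.25).

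Pprc1, the PGC-1-related coactivator that is known to respond to serum, rose with AICAR. In dKO MEFs it was at 10.40, 10.45, 10.34 and 10.32 with AICAR, against 10.21, 10.15, 10.09 and 10.13 with vehicle (0.23 ± 0.05, adjusted p = 0.000501). In WT MEFs it was at 10.34, 10.44, 10.35 and 10.33 with AICAR, against 9.91, 10.21, 9.95 and 9.89 with vehicle (0.38 ± 0.05, adjusted p = 7.55e-07). The AICAR levels of the genotypes lay together, and the vehicle array at 10.21 stood apart from the other 3 WT vehicle arrays. Without that array, WT vehicle replicate 2, Pprc1 was called in 3 comparisons where the fit on all arrays did not call it: the 991 interaction (0.28, adjusted p = 0.00714), the AICAR interaction (0.22, adjusted p = 0.0176) and 991 in dKO MEFs (-0.19, adjusted p = 0.00957). In dKO hepatocytes Pprc1 was at 9.57 and 9.54 with AICAR, against 8.87 and 8.94 with vehicle, a difference of 0.65 ± 0.06 or 1.57-fold (adjusted p = 1.95e-05). In WT hepatocytes it was at 9.28 and 9.14 with AICAR, against 9.01 and 9.06 with vehicle (0.17 ± 0.06, not called, adjusted p = 0.0774). All 4 hepatocyte preparations were higher with AICAR, by 0.70 and 0.60 in dKO and by 0.27 and 0.08 in WT. The interaction was -0.47 ± 0.09 (adjusted p = 0.0137), so the AICAR effect was larger in dKO. It was not called without WT preparation 2 (-0.38, adjusted p = 0.153), without dKO preparation 1 (-0.42, adjusted p = 0.178), or when 1 probe set per gene was tested (adjusted p = 0.0602). With 991, Pprc1 was not called in either genotype of either cell type, and the difference in dKO MEFs was -0.19 ± 0.05 (adjusted p = 0.0537). That difference became a call after quantile normalization (-0.21, adjusted p = 0.00951), among probe sets at or above the median level (adjusted p = 0.036), with 1 probe set per gene (adjusted p = 0.0325) and without dKO 991 replicate 4 (-0.22, adjusted p = 0.0429).

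In MEFs with vehicle Pprc1 was also higher in dKO than in WT, by 0.16 ± 0.05 (adjusted p = 0.0152). The arrays overlapped, because WT vehicle replicate 2 at 10.21 was level with the highest dKO array. That call was lost without dKO vehicle replicate 1 or WT vehicle replicate 1 or 4, with 0.12 to 0.14 and adjusted p of 0.0585 to 0.0783.

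Esrra, which encodes the orphan nuclear receptor ERR alpha that PGC-1 coactivators bind, was, like Ppargc1b, higher in dKO than in WT MEFs. Probe set 1460652_at was at 8.23, 8.10, 8.08 and 8.20 in dKO MEFs with vehicle, against 7.44, 7.53, 7.53 and 7.44 in WT MEFs (0.67 ± 0.06, adjusted p = 1.03e-11). Probe set 1442864_at was at 7.72, 7.67, 7.58 and 7.50 in dKO, against 6.86, 6.99, 6.84 and 7.09 in WT (0.67 ± 0.07, adjusted p = 4.08e-09). Both gave the same 1.59-fold difference with no overlap. With AICAR both probe sets fell in MEFs: 1442864_at by 0.55 (-0.55 ± 0.07) in dKO and 0.30 (-0.30 ± 0.07) in WT, and 1460652_at by 0.16 (-0.16 ± 0.06, adjusted p = 0.019) in dKO and 0.23 (-0.23 ± 0.06, adjusted p = 0.00142) in WT. The fall of 1460652_at in dKO MEFs was not called without dKO AICAR replicate 1 or dKO vehicle replicate 1 or 4 (-0.12 to -0.15, adjusted p of 0.0609 to 0.104). With 991 neither probe set was called in either cell type.

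In hepatocytes the Esrra probe sets parted under AICAR. Probe set 1442864_at was at 5.69 and 5.93 in dKO with AICAR, against 6.71 and 6.44 with vehicle (-0.77 ± 0.12, adjusted p = 0.000642). In WT it was at 5.69 and 5.94 with AICAR, against 6.44 and 6.51 with vehicle (-0.66 ± 0.12, adjusted p = 0.00238, and -0.57 with adjusted p = 0.0746 without WT preparation 1). Probe set 1460652_at was not lower: it was at 9.004 and 9.15 in dKO with AICAR against 8.95 and 8.89 with vehicle, and at 8.91 and 8.96 in WT with AICAR against 8.77 and 8.78 with vehicle (both 0.16 ± 0.07, not called). A single direction for Esrra under AICAR in hepatocytes therefore cannot be given. With AICAR 1442864_at was at or below the median of all probe sets there (5.94), unlike 1460652_at. Whether such levels stand above background is not known here.

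Nrf1, a transcription factor of respiratory chain and mitochondrial transcription genes, had 4 probe sets that did not move together. In dKO MEFs with AICAR, 1420978_at rose by 0.49 ± 0.06 and 1424787_a_at by 0.29 ± 0.06, while 1434627_at fell by 0.24 (-0.24 ± 0.05, adjusted p = 0.000402). In WT MEFs 1420978_at rose by 0.46 ± 0.06 and 1424787_a_at by 0.34 ± 0.06, while 1434627_at fell by 0.41 (-0.41 ± 0.05, adjusted p = 2.08e-07). The arrays show each of these without overlap. For 1420978_at the 4 WT arrays with AICAR were at 8.04, 8.10, 8.17 and 8.07, against 7.53, 7.79, 7.74 and 7.48 with vehicle. For 1434627_at they were at 8.31, 8.43, 8.42 and 8.29, against 8.69, 8.90, 8.74 and 8.74 with vehicle. Which Nrf1 transcripts each probe set reads is not given by the labels or files, so the gene has no single direction here.

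The fourth Nrf1 probe set, 1445914_at, gave 0.16 ± 0.06 in dKO MEFs with AICAR (adjusted p = 0.043), a call lost in 6 of the 23 fits that left out 1 array, those without dKO AICAR replicate 2, 3 or 4 or dKO vehicle replicate 1, 2 or 4 (0.12 to 0.17, adjusted p of 0.053 to 0.162). In hepatocytes it was the one Nrf1 probe set called, and it went the other way. It was at 5.92 and 5.76 in dKO with AICAR, against 6.44 and 6.50 with vehicle (-0.63 ± 0.09, adjusted p = 0.000567), and at 5.78 and 6.03 in WT with AICAR, against 6.39 and 6.24 with vehicle (-0.41 ± 0.09, adjusted p = 0.0108, and -0.21 with adjusted p = 0.228 without WT preparation 1). With AICAR 1445914_at thus lay near the median of all probe sets in hepatocytes (5.94), and whether such levels stand above background is not known here. The other 3 probe sets were higher with AICAR by 0.12 to 0.22 in hepatocytes of both genotypes, without a call. With 991 in WT MEFs, 1424787_a_at gave 0.19 ± 0.06 (adjusted p = 0.0414), which was lost without WT vehicle replicate 1, 3 or 4 or WT 991 replicate 2 or 3 (0.13 to 0.20, adjusted p of 0.0638 to 0.177), after quantile normalization (0.10, adjusted p = 0.212) and without the variance trend (adjusted p = 0.0601). Between the genotypes in MEFs with vehicle, 1420978_at was higher in dKO (0.21 ± 0.06), and 1424787_a_at and 1434627_at were lower (-0.19 ± 0.06 and -0.23 ± 0.05).

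Gabpa, the DNA-binding subunit of the ETS factor GABP, rose with AICAR. On 1450664_at it was at 11.06, 10.88, 11.06 and 10.88 in dKO MEFs with AICAR, against 10.68, 10.68, 10.64 and 10.65 with vehicle (0.31 ± 0.05, adjusted p = 6.53e-06). In WT MEFs it was at 10.84, 10.73, 10.73 and 10.83 with AICAR, against 10.53, 10.61, 10.54 and 10.67 with vehicle (0.19 ± 0.05, adjusted p = 0.00245). Neither genotype showed an overlap. The second probe set rose in dKO (0.28 ± 0.05) and was not called in WT (0.08 ± 0.05), and neither interaction was called. In dKO hepatocytes 1450664_at was at 9.80 and 9.72 with AICAR, against 9.47 and 9.58 with vehicle (0.23 ± 0.07, adjusted p = 0.0289). That call was lost without dKO preparation 1 (0.14, adjusted p = 0.515), without dKO preparation 2 (0.32, adjusted p = 0.0533) and with no replicate block (adjusted p = 0.0579). In WT hepatocytes it was at 9.62 and 9.50 with AICAR, against 9.38 and 9.48 with vehicle (0.13 ± 0.07, not called). The mean of the 6 endothelial markers was also higher with AICAR, at 7.18 and 7.02 in dKO against 6.93 and 6.69 with vehicle, and at 6.94 and 7.14 in WT against 6.64 and 6.81. The 7 Kupffer cell and macrophage markers averaged 8.72 and 8.47 in dKO with AICAR against 8.42 and 8.15 with vehicle, and 8.92 and 9.10 in WT against 8.60 and 9.04. The 8 hepatocyte markers averaged 13.53 and 13.60 in dKO with AICAR against 13.34 and 13.42, and 13.58 and 13.45 in WT against 13.33 in both preparations. The 8 fibroblast markers averaged 6.85 and 6.77 in dKO with AICAR against 6.76 and 6.69, and 6.775 and 6.83 in WT against 6.71 and 6.78. All 4 lists were thus higher in each of the 4 preparations, and the 4 cholangiocyte markers were lower (means of 6.27 and 6.25 in dKO against 6.37 and 6.32, and 6.06 and 6.17 in WT against 6.26 and 6.29). The part of these cells in the AICAR results in hepatocytes was not tested. Between dKO and WT MEFs with vehicle Gabpa had 1 call, 0.14 ± 0.05 on 1450665_at (adjusted p = 0.0401), which 6 of 23 left-out arrays ended (dKO vehicle replicate 1, 3 or 4 and WT vehicle replicate 1, 3 or 4, with 0.11 to 0.15 and adjusted p of 0.0519 to 0.147), as did quantile normalization (0.11, adjusted p = 0.0683) and a fit without the variance trend (adjusted p = 0.0539).

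Tfam, whose promoter window holds the ETS letters as that of Gabpa does, had no call in MEFs on probe set 1448224_at, where the 6 group means lay between 10.39 and 10.53. Probe set 1456215_at fell with AICAR: it was at 6.75, 6.86, 7.02 and 6.62 in dKO, against 7.22, 7.19, 7.15 and 7.20 with vehicle (-0.38 ± 0.07, adjusted p = 2.45e-05), and at 6.98, 6.94, 6.99 and 6.85 in WT, against 7.24, 7.32, 7.31 and 7.22 with vehicle (-0.33 ± 0.07, adjusted p = 0.000196). The groups did not overlap in either genotype, so the 2 probe sets of Tfam disagree there. In WT hepatocytes 1448224_at fell with AICAR, to 9.49 and 9.50, against 9.66 and 9.78 with vehicle (-0.23 ± 0.05, adjusted p = 0.011, and -0.17 with adjusted p = 0.171 without WT preparation 2). In dKO hepatocytes it was at 9.73 and 9.69 with AICAR, against 9.79 and 9.70 (-0.03 ± 0.05, not called), and the interaction was not called (-0.20 ± 0.07, adjusted p = 0.285).

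Tfb2m, the promoter-melting partner of the mitochondrial RNA polymerase, differed between the genotypes in MEFs. With vehicle it was at 10.39, 10.41, 10.38 and 10.33 in dKO, against 9.87, 10.05, 9.91 and 9.97 in WT, a difference of 0.43 ± 0.04 without overlap (adjusted p = 7.03e-11). In hepatocytes the genotypes lay at 10.35 and 10.37 in dKO and at 10.41 and 10.39 in WT (-0.04 ± 0.07, not called). In WT MEFs it was at 10.13, 10.07 and 10.02 with 991 and at 10.11, 10.00, 10.09 and 10.06 with AICAR, both overlapping the vehicle arrays. The differences were 0.12 ± 0.04 with 991 (adjusted p = 0.0481) and 0.12 ± 0.04 with AICAR (adjusted p = 0.0188). The 991 call was lost in 14 of the 23 fits that left out 1 array (0.10 to 0.13, adjusted p of 0.0508 to 0.243), and it held without dKO 991 replicate 2 or 3, dKO AICAR replicate 3 or 4, dKO vehicle replicate 4, WT 991 replicate 4, WT AICAR replicate 1 or 2, or WT vehicle replicate 2. The AICAR call was lost without WT AICAR replicate 1 or 3 or WT vehicle replicate 1 or 3 (0.09 to 0.11, adjusted p of 0.0531 to 0.0919). Both were lost after quantile normalization within the cell type (0.07, adjusted p = 0.274, and 0.04, adjusted p = 0.359), and the 991 call also without the variance trend (adjusted p = 0.0915) and with the technical replicate block (adjusted p = 0.0568). In WT hepatocytes Tfb2m was at 10.25 and 10.20 with 991, below both vehicle preparations (-0.18 ± 0.05), without a call (adjusted p = 0.0641).

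The members can be read against other genes of the same pathway, in 5 lists that hold 102 measured genes in all, each gene by its probe set of greatest mean level. With 991 in dKO MEFs 1 of these was higher (Lars2, a mitochondrial leucyl-tRNA synthetase) and 1 lower (Timm10, an intermembrane space chaperone), where 2.48% of all genes were called. In WT MEFs 22 (21.6%) were higher and none lower, where 16.9% of all genes were called, 2282 higher and 800 lower. By list, the rises were 6 of 16 genes (37.5%) of mitochondrial DNA transcription and replication, with Primpol at 0.42 ± 0.10 and Mterf1a at 0.35 ± 0.08. They were also 6 of 25 respiratory chain genes (24%) and 5 of 24 genes of protein import and chaperones (20.8%). Mitochondrial translation had 3 of 18 (16.7%) and the other regulators 2 of 19 (10.5%). The import and translation lists are thus near the share of all genes, and the other regulators are below it. The median difference over the respiratory chain list was 0.04 and over the DNA list 0.14, against a median of -0.00021 over all genes. In the 991 interaction 2 of the 102 were called, both import genes (Timm10 and Pam16, which holds the import motor's J protein in check), where 3.9% of all genes were.

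In WT hepatocytes, where Grpel2 rose 2.47-fold with 991, 3 of the 102 pathway genes were called, against 5.01% of all genes. They were Ppargc1a and the corepressor Nrip1 (0.44 ± 0.08), which rose, and Timm9 (-0.32 ± 0.07), an intermembrane space chaperone, which fell. Among the 24 genes of import and chaperones, the list to which Grpel2 is nearest in function, none rose and the median was -0.04, against 0.03 over all genes. No gene of the DNA, translation or respiratory chain lists was called there.

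With AICAR more of the 102 genes were higher than lower in MEFs. In WT hepatocytes more were lower than higher, while in dKO hepatocytes the directions were nearly even. Over all genes 3481 were higher and 2747 lower in WT MEFs, and 3663 higher and 3570 lower in dKO MEFs. For hepatocytes these counts were 1542 higher and 1465 lower in WT, and 1921 higher and 1358 lower in dKO. In WT MEFs 43 of the 102 were higher and 9 lower (34.2% of all genes called), among them 12 of 24 import genes higher and none lower, and 12 of 25 respiratory chain genes higher and none lower. The import list had a median of 0.08 there, against -0.01 over all genes, and of -0.13 in WT hepatocytes, against 0.04 over all genes. In dKO MEFs 28 of the 102 were higher and 20 lower (39.8% of all genes). Among the import genes 7 were higher and 4 lower there, with a median of 0.065, against -0.02 over all genes. The import median in dKO hepatocytes was -0.0355, against 0.04 over all genes. The mitochondrial helicase Twnk fell by 1.26 (-1.26 ± 0.05) in dKO MEFs and by 0.79 (-0.79 ± 0.05) in WT MEFs, and the transcription termination factor Mterf1a rose by 0.70 ± 0.07 and 0.95 ± 0.07. In hepatocytes Twnk fell as well (-0.80 ± 0.07 in dKO, -0.54 ± 0.07 in WT). Mterf1a went the other way there and was called lower (-0.24 ± 0.07 in dKO, -0.27 ± 0.07 in WT). In the AICAR interaction in MEFs 13 of the 102 were higher in WT and 2 lower (10.9% of all genes), with Twnk at 0.48 ± 0.07. In WT hepatocytes with AICAR 6 were higher and 20 lower, where 16.5% of all genes were called, and in dKO hepatocytes 11 were higher and 13 lower, where 18% were. Of the 24 import genes 11 were lower in WT hepatocytes, with Timm22, the carrier translocase, at -0.41 ± 0.05, and 4 in dKO hepatocytes, with Timm22 at -0.36 ± 0.05. Of the 18 translation genes none was higher in hepatocytes of either genotype, and 6 were lower in dKO and 4 in WT. The 19 other regulators went the other way, with 6 higher in dKO hepatocytes, 4 higher in WT hepatocytes and none lower. Of the 25 respiratory chain genes 2 were higher and 1 lower in dKO hepatocytes, and 1 was higher and 1 lower in WT hepatocytes. Of the 16 DNA genes 1 was higher and 2 lower in dKO hepatocytes, and none was higher and 4 were lower in WT hepatocytes. Whether the lists differ between the cell types or genotypes was not tested.

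**Figure D4:**
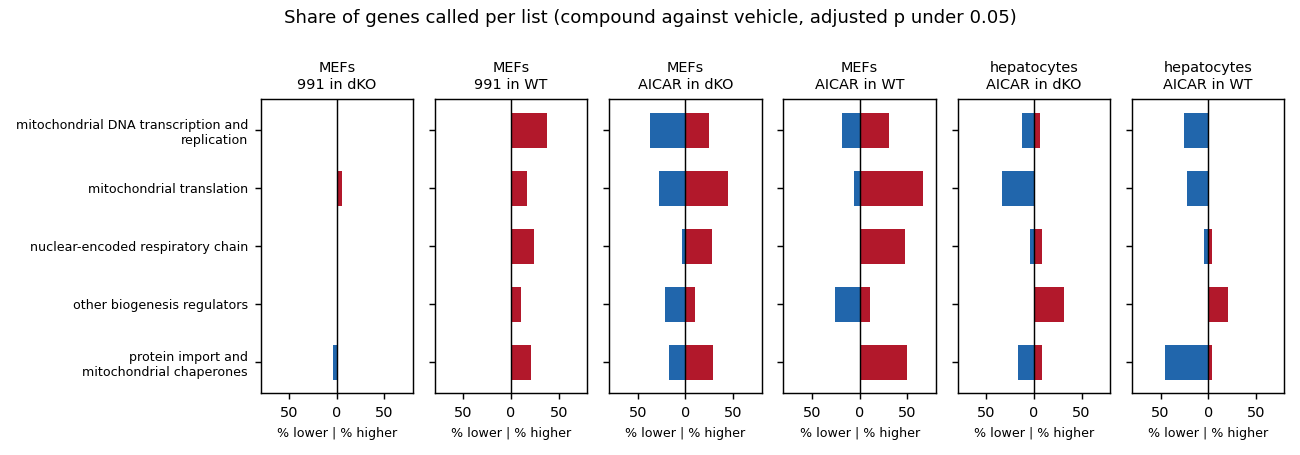
Share of the genes of 5 mitochondrial lists (rows) called higher (red, right) or lower (blue, left) with the compound than with vehicle, in % of the list (horizontal axes), in dKO and WT cells. The panels show 991 and AICAR in MEFs, and AICAR alone in hepatocytes. With 991 in WT MEFs every call is a rise, and with AICAR the import list has 12 rises and no fall in WT MEFs but 11 falls and 1 rise in WT hepatocytes. In dKO cells with AICAR the same list is mixed, with 7 rises and 4 falls in MEFs and 2 rises and 4 falls in hepatocytes.

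Between dKO and WT MEFs with vehicle 41 of the 102 pathway genes were higher and 23 lower, where 46.5% of all genes were called. Of the 25 respiratory chain genes 15 were higher in dKO, with the complex II anchor Sdhc at 0.63 ± 0.04, and 4 lower. Of the 16 DNA genes 10 were higher, with Tfb1m, the paralog of Tfb2m that methylates mitochondrial ribosomal RNA, at 0.54 ± 0.06, and 3 lower. Of the 18 translation genes 3 were higher and 3 lower, with the ribosomal protein gene Mrps12 at 1.20 ± 0.04 and Lars2 at -1.39 ± 0.06. Of the 24 import genes 9 were higher and 9 lower, and of the 19 other regulators 4 were higher and 4 lower.

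Across the 12 group means, with the mean of each cell type taken off, Esrra lay closest to Ppargc1b among the members (Pearson r = 0.83) and Gabpa to Pprc1 (r = 0.82), while Grpel1 and Grpel2 had r = 0.30. Of all 18194 genes the 3 with the pattern most like Ppargc1b were Fbxo32 (r = 0.98), Sh2b3 (r = 0.97) and Lfng (r = 0.97). Those most like Grpel2 were Xdh (r = 0.97), Zscan26 (r = 0.96) and 0610040J01Rik (r = 0.92), and those most like Grpel1 were Psmg3 (r = 0.98), Nxt1 (r = 0.98) and Elp5 (r = 0.98). These describe 12 points that share arrays, batches of cells and normalization, and for Grpel2 the point farthest from the others is that of WT hepatocytes with 991.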

How the data were processed

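The deposited table holds log2 intensities per probe set, which the authors made with RMA and Partek per the submitters' processing notes (versions not given in the sources used here). Whether the cell types were normalized together is not given there, so all tests ran within a cell type. The authors left out 1 array of each cell type as an outlier, per the series' design text. All 82 deposited arrays were used, and their number limits the precision. The table has 45101 probe sets, and 64 control probe sets were removed. GEO's platform annotation gives 1 gene symbol for 34945 of the remaining 45037, several for 932 and none for 9160, and names were checked against RefSeq (GRCm38.p6). The 9 member genes, the 5 pathway lists, the marker lists and the tests were chosen with earlier results of these data known, so no list is independent evidence.

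Tests were made in R 4.3.3 with limma 3.58.1 (linear fit, contrasts and moderated variances with an intensity trend), with Benjamini-Hochberg adjustment over all 45037 probe sets, or over 18194 genes in the fit with 1 probe set per gene. The pathway list calls use the adjusted p over all probe sets. MEF arrays were fitted in 6 groups (17 residual degrees of freedom). Hepatocyte technical replicates were averaged to 12 preparation means, with preparation within genotype as a fixed block (4 degrees of freedom). The genotype comparison used the 4 vehicle means (2 degrees of freedom). Preparations pair treatments within a genotype: their deviations correlated at 0.36 to 0.78 in all 12 pairs. With 2 preparations per group the deviations mirror each other, so each value occurs for both preparations and the pairs are not all separate. Where a call is lost with no replicate block, this is stated beside it. The scripts were tested on simulated data. Named genes are the members, the 3 called genes of largest change per list, Ppargc1a, Prkaa1 and Prkaa2, and the 3 genes most like Ppargc1b, Grpel1 and Grpel2. Alternatives were quantile normalization, a filter at the median level, no variance trend, 1 probe set per gene, other blocks, fits on single arrays (all, or those of 1 preparation), and fits without 1 array or 1 preparation. Python 3.11.15, pandas 2.3.3 and matplotlib 3.10.9 prepared tables and figures.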

Additional observations from a re-analysis of the deposited data

Results flagged for a closer look

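In 5 member results the effect of a compound differed between the genotypes by an interaction test (WT effect minus dKO effect): Ppargc1b with 991 in MEFs (0.49), Grpel2 with 991 in MEFs (0.18), Ppargc1b with AICAR in MEFs (0.6), Grpel2 with 991 in hepatocytes (1.05) and Pprc1 with AICAR in hepatocytes (-0.47). Both Ppargc1b interactions were called in all 28 other fits, and that of Grpel2 with 991 in MEFs in 8 of 28. In hepatocytes the Grpel2 interaction was called in 8 of 12 other fits and that of Pprc1 in 9 of 12. These 12 include fits that take single arrays as samples, which measure technical spread only. Both hepatocyte interactions were lost in fits without 1 preparation, as given above.

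In 6 of the 80 MEF groups of 4 arrays that were examined, 1 array stood apart from the other 3 by the Dixon criterion, which chance meets in about 1 in 20 groups. They were Pprc1 in WT vehicle replicate 2 (highest, 10.21), Esrra 1442864_at in WT AICAR replicate 4 (highest, 6.83), Nrf1 1424787_a_at in dKO vehicle replicate 4 (lowest, 8.08), Gabpa 1450665_at in dKO AICAR replicate 1 (highest, 8.86), Grpel2 1436256_at in dKO vehicle replicate 4 (lowest, 6.75) and Grpel2 1452262_at in dKO vehicle replicate 3 (lowest, 9.88). Of these arrays, dKO vehicle replicate 4 appears for 2 probe sets.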

How the results depend on the processing

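Of the 58 called differences of members, the alternative settings kept the call and direction in 289 fits and lost the call in 18, and the fits that left out 1 array or preparation kept it in 1014 and lost it in 73. None of the 58 changed sign. For the 166 differences not called, a call of the same sign came in 97 fits of the alternative settings and in 18 left-out fits. The 97 include fits that take single arrays as samples, which measure technical spread only. A call of opposite sign came in 1 fit, Grpel1 between dKO and WT hepatocytes in preparation 2 alone (-0.0717, arrays as samples). Counts of called members moved as follows, and the cause was not tested. With 991 in WT MEFs 4 members became 2 after quantile normalization and 2 without the variance trend (2 to 5 when 1 array was left out). In dKO MEFs 0 became 1 (Pprc1) after quantile normalization, with the median filter or with 1 probe set per gene (0 to 1). The 991 interaction in MEFs had 2, and 1 after quantile normalization, without the trend or with the technical replicate number as a replicate block (1 to 4). The technical numbers did not pair the MEF arrays (median r = 0.01 over 55 pairs), and that replicate block ended 2 of 45 member calls there. Left-out arrays gave 12 to 13 members with AICAR in WT MEFs, 12 to 14 in dKO MEFs, 1 to 2 in the AICAR interaction and 9 to 11 between the genotypes. In hepatocytes, treating every array as a sample, preparation 1 alone and preparation 2 alone measure technical spread only. With these, in that order, AICAR gave 13, 9 and 11 members in dKO (4 in the fit of the report, 4 to 5 with a preparation left out) and 12, 11 and 9 in WT (4, and 1 to 6), 991 gave 1, 2 and 1 in dKO (0, and 0 to 0) and 6, 4 and 8 in WT (3, and 1 to 3), the 991 interaction 4, 3 and 4 (1, and 0 to 1), the AICAR interaction 4, 3 and 5 (1, and 0 to 1) and dKO against WT 5, 8 and 5 (0, and 0 to 0). With no replicate block the 991 interaction had 0, and with 1 probe set per gene the AICAR interaction had 0. Preparation numbers of the genotypes ran against each other (r of -0.71 to -0.59 over 6 pairs, in which each value again occurs for both preparations). A crossed pairing as a replicate block, chosen after seeing the data, gave 1 call between the genotypes, Grpel2.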

Other observations

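Ppargc1b and Grpel2, the members that rose with 991 in WT hepatocytes, are near neighbours in the RefSeq gene table (GRCm38.p6), with 4 protein-coding genes between them. These neighbours were chosen after the values were seen. Of the 4, Csnk1a1 (-0.10 ± 0.04), Il17b (0.07 ± 0.06) and Pcyox1l (0.02 ± 0.07) were measured, and none was called with 991 in WT hepatocytes (limma adjusted p of 0.24, 0.568 and 0.87). The 3 measured genes beyond Grpel2 gave -0.02 ± 0.07 (Afap1l1), -0.35 ± 0.11 (Ablim3) and 0.01 ± 0.08 (Sh3tc2), and the 2 measured on the side of Ppargc1b gave 0.12 ± 0.07 (Pde6a) and 0.09 ± 0.08 (Slc26a2). None of these 5 was called.

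Among the other regulators, the metabolic receptor gene Ppara and the corepressor Nrip1 rose with AICAR in hepatocytes of both genotypes. Ppara was higher by 0.63 ± 0.10 in dKO and 0.71 ± 0.10 in WT, and Nrip1 by 0.61 ± 0.08 and 0.59 ± 0.08 (adjusted p of 0.000869 or less). The deacetylase gene Sirt1 rose by 0.58 ± 0.08 in dKO, and its AICAR effect was smaller in WT (interaction -0.54 ± 0.12, adjusted p = 0.0314). In MEFs the GABP beta subunit genes moved apart with AICAR: Gabpb1 rose by 0.42 ± 0.06 in dKO and 0.34 ± 0.06 in WT, while Gabpb2 fell by 0.80 (-0.80 ± 0.04) and 0.57 (-0.57 ± 0.04).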
